A study of Homo sapiens with 8 samples.

Results

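Transcript levels in TAL1-FKBP12 Jurkat cells treated for 24 hours with dTAG-13 were compared with those of the same cells treated with DMSO. These are 4 of the 8 libraries of the series, chosen by treatment alone: 2 from dTAG-13 cells and 2 from DMSO cells. Jurkat is an established human line of T-cell acute lymphoblastic leukaemia (T-ALL). All groups carry TAL1 fused to FKBP12, so the DMSO cells are tagged but received no degrader, and DMSO is the solvent control. The other 4 libraries come from the same cells given dTAG-13 with GSI (the combination) or GSI alone, also for 24 hours. GSI usually stands for a gamma-secretase inhibitor, which keeps NOTCH receptors from being activated. These 4 were used to ask whether the changes recur in libraries that the first comparison did not use, in an alternative model of all 8 libraries and in the test of a difference between the backgrounds. The labels give no doses and do not say whether the cells are 1 clone. They also do not say whether replicates were separate cultures, so p-values here rest on sample-to-sample spread that may be technical.

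TAL1 is a basic helix-loop-helix transcription factor that is normally silenced during thymocyte maturation and is switched on in many cases of T-ALL. It binds DNA together with E proteins such as TCF3 and TCF12, which as dimers of their own drive genes of early T-cell development, including those of antigen receptor rearrangement. In T-ALL, TAL1 sits in a complex with LMO proteins, GATA3, RUNX1 and MYB. dTAG-13 links the FKBP12 tag to the cereblon ubiquitin ligase, which marks the tagged protein for destruction. The comparison therefore asks which transcripts differ once the tagged TAL1 protein has been targeted for a day. TAL1 protein itself was not measured in these libraries.

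The libraries held 17544319 to 22180009 counts each, and 14994 of the 63677 listed genes had enough counts to be tested. Levels are given as CPM, counts scaled to library size with normalisation factors (TMM) set over all 8 libraries. They allow a gene to be compared between libraries but not with another gene. The log2 fold changes use factors set over the libraries of their own fit. The TAL1 transcript stood at 145 and 147 CPM in the dTAG-13 libraries, against 153 and 166 CPM in the DMSO libraries (log2 fold change -0.13, SE 0.07, adjusted p = 0.747). FKBP1A, which encodes the endogenous protein from which the tag derives, and CRBN, which encodes cereblon, had log2 fold changes of -0.05 and -0.04 and did not pass the test. Of 14 T-cell markers, 13 had a mean of at least 1 CPM, TRBC1 being at 0. The sum of 12 myeloid markers was 0.512 to 0.923 CPM, with 6 of them at 0 in all 4 libraries. The 12 epithelial and stromal markers summed to 2.49 to 4.85 CPM, and 9 of them were at 0. B-cell markers summed to 227 and 275 CPM in the dTAG-13 libraries, against 278 and 244 CPM in the DMSO libraries, mostly from IGLL1 and CD79A. Erythroid and megakaryocytic markers summed to 427 and 422 CPM in the dTAG-13 libraries, against 454 and 490 CPM in the DMSO libraries, and the sum was led by TFRC, which dividing cells also express. The part of this sum in the results was not tested. Enough counts to be tested were held by 4 of 10 B-cell and 4 of 17 erythroid and megakaryocytic markers. The same held for 2 of 12 epithelial and stromal and 0 of 12 myeloid markers. None of those tested passed, and the others could not pass. Of 13 tested T-cell markers 2 were lower past the test, CD5 and TRAC. In bulk RNA, fewer cells expressing a gene and less of its RNA per cell cannot be told apart.

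After dTAG-13, 59 genes fell (0.393% of those tested) and 12 rose (0.08%), together 71 (0.474%), by edgeR's quasi-likelihood test on the 4 libraries, at an adjusted p below 0.05. The lowest were SPRY4 and EGR1, a feedback inhibitor of the ERK pathway and an immediate early transcription factor, followed, with clone and noncoding names left out, by PREX2, KIAA1462 (now named JCAD), PLCH1, ENPP1 and ADCYAP1. The highest were PTCRA, the invariant chain of the pre-T cell receptor, and RAG1, which with RAG2 cuts antigen receptor genes for rearrangement. Most changes were small. Among the lower genes 8 changed at least 2-fold and 37 less than 1.5-fold, and among the higher genes 1 changed at least 2-fold and 6 less than 1.5-fold. The groups did not overlap in the 71 genes, as in 5296 of all 14994 tested genes (35.3%), and the rule that names genes by size of change requires it. The median DMSO level was 38.2 CPM for the lower genes, 36.7 CPM for the higher genes and 22 CPM for all genes tested. Before adjustment 1041 genes (6.94%) had a p below 0.05. The number of genes called differed between fits. A single edgeR model of all 8 libraries called 3 genes lower (PLCH1, CD40LG and ALDH1A2, 0.0192%) and 0 higher, with 601 genes below an unadjusted p of 0.05, 222 of them higher. DESeq2 on the 4 libraries called 26 lower (0.243%) and 7 higher (0.0654%), with all 33 among the 71, of which 7 had no adjusted p in DESeq2. Without the filter on low counts edgeR called 81 lower and 38 higher. The authors' deposited table has 26 genes lower (0.222%) and 6 higher (0.0513%) at an adjusted p below 0.05, all 32 among the 71. Adjusted p-values below are edgeR's from the 4 libraries unless another fit is named, and "fell" and "rose" refer to that test. SE is a standard error of the log2 fold change derived from the test. It is the size of the log2 fold change over the square root of the F statistic.

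**Figure D1:**
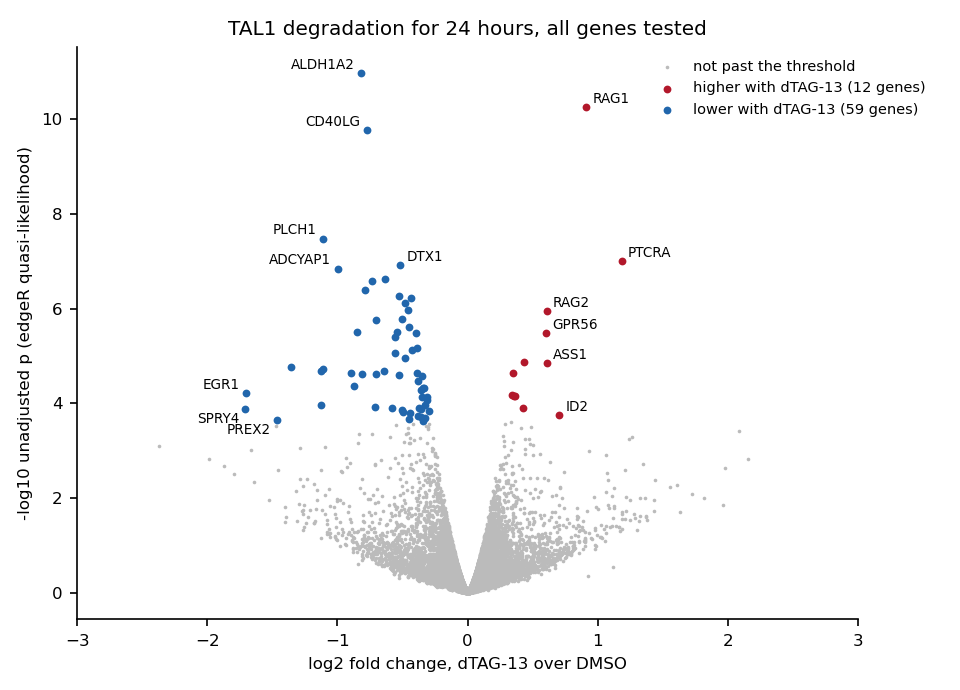
Log2 fold change of dTAG-13 over DMSO (x axis) against the negative log10 of the unadjusted p (y axis) for the genes tested, 1 of which lies outside the axes. Blue points are the 59 genes that fell, red points the 12 that rose, and grey points did not pass. ALDH1A2, CD40LG and RAG1 have the smallest p-values.

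The promoters of the 2 lowest and the 2 highest genes are shown because these genes mark both ends of the response. E proteins and TAL1 bind variants of the E-box, so CAGNTG, which reads CANCTG on the other strand, was searched on both strands. Each line gives the 250 bases before the start of the gene, in RefSeq's GRCh38.p14 and in the direction of transcription, with any match in capitals. They lie at chr5:142324248-142324497 on the minus strand (SPRY4), chr5:138465229-138465478 on the plus strand (EGR1), chr6:42915803-42916052 on the plus strand (PTCRA) and chr11:36510103-36510352 on the plus strand (RAG1).
SPRY4: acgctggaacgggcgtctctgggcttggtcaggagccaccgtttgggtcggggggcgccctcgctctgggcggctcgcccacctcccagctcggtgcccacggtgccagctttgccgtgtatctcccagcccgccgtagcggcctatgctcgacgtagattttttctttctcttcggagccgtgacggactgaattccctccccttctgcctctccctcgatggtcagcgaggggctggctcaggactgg
EGR1: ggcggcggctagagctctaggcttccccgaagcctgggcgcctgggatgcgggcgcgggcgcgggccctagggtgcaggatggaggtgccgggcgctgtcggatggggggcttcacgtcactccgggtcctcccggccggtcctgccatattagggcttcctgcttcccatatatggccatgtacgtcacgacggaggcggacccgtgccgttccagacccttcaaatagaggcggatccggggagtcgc
PTCRA: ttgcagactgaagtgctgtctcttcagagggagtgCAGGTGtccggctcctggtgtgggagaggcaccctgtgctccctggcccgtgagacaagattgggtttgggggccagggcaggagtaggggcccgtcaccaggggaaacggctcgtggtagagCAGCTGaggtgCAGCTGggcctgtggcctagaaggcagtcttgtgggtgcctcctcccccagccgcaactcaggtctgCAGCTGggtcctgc
RAG1: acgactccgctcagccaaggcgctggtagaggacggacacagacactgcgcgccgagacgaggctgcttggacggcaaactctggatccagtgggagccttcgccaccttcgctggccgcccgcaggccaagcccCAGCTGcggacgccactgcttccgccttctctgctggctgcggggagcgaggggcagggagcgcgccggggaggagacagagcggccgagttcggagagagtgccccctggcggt
SPRY4 and EGR1 had 0 matches, PTCRA had 4 and RAG1 had 1. In the window that also takes in the first 50 bases of the gene, the motif was found in 19 of the 38 lower genes with a promoter in the table (50%) and in 8 of the 11 higher genes (72.7%). It was found in 4554 of 10492 tested genes (43.4%) and in 13617 of all 27305 promoters (49.9%). A match is a string of letters and does not show binding.

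The feedback genes SPRY4, ETV5 and SPRED2 of the ERK pathway fell after dTAG-13, and so did EGR1. ERK signalling induces Sprouty and SPRED proteins, dual-specificity phosphatases and ETS factors of the PEA3 group, and the inhibitors among them damp the signal. SPRY4, a Sprouty inhibitor, stood at 0.460 and 0.512 CPM in the dTAG-13 libraries, against 1.62 and 1.59 CPM in the DMSO libraries. Both dTAG-13 values lay under the lower DMSO value, a 3.27-fold lower level (log2 fold change -1.71, SE 0.38, adjusted p = 0.0324), but these are 10 and 11 counts against 28 and 35. ETV5, an ETS transcription factor, had 4.05 and 3.35 CPM in the dTAG-13 libraries, against 7.33 and 6.30 CPM in the DMSO libraries (log2 fold change -0.87, SE 0.18, adjusted p = 0.0152). SPRED2, which restrains RAF activation, had 51.7 and 50.9 CPM in the dTAG-13 libraries, against 71.3 and 66.99 CPM in the DMSO libraries (log2 fold change -0.43, SE 0.08, adjusted p = 0.00445). These were the 3 that fell among 12 tested members of the ERK feedback list. In that list 9 genes had a negative value, with a median log2 fold change of -0.31 against 0.00 for all genes. Of all genes tested 0.393% fell and 48.4% had a negative value. DUSP6, the cytoplasmic ERK phosphatase, had 1.38 and 1.30 CPM in the dTAG-13 libraries, against 2.25 and 2.31 CPM in the DMSO libraries, and did not pass (log2 fold change -0.77, SE 0.28, adjusted p = 0.430). Its groups did not overlap, as in 35.3% of all genes tested. DUSP2, PHLDA1 and SPSB4 had positive values of 0.13 to 0.15, none past the test.

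EGR1, which growth factor and antigen receptor signals induce within minutes, had 0.598 and 0.652 CPM in the dTAG-13 libraries, against 2.54 and 1.63 CPM in the DMSO libraries (log2 fold change -1.71, SE 0.36, adjusted p = 0.0199). Its DMSO replicates differed more from each other than its dTAG-13 replicates did. It was the 1 of 18 tested immediate early genes that fell, and that list had a median of -0.02, with 10 negative and 8 positive values.

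PREX2, PLCH1, PRKCE, ENPP1, ADCYAP1 and PPP1R16B fell as well. PREX2, an exchange factor that activates RAC, had 0.736 and 0.699 CPM in the dTAG-13 libraries, against 1.62 and 2.31 CPM in the DMSO libraries (log2 fold change -1.47, SE 0.34, adjusted p = 0.0476), the highest adjusted p among the 15 lowest genes. PLCH1, a phospholipase C, had 5.20 and 5.12 CPM in the dTAG-13 libraries, against 11.2 and 11.1 CPM in the DMSO libraries (log2 fold change -1.11, SE 0.14, adjusted p = 1.25e-04), with replicates that nearly coincided in each group. PRKCE encodes protein kinase C epsilon, which diacylglycerol from phospholipase C activates, and had 13.3 and 14.1 CPM in the dTAG-13 libraries, against 22.7 and 22.9 CPM in the DMSO libraries (log2 fold change -0.74, SE 0.11, adjusted p = 4.33e-04). PLCH1 and PRKCE were the 2 of 24 tested phospholipase C, diacylglycerol kinase and protein kinase C genes that passed, against 0.474% of all genes tested. The list's median was -0.06. ENPP1, an ectoenzyme that hydrolyses extracellular nucleotides, had 2.58 and 1.96 CPM in the dTAG-13 libraries, against 4.44 and 5.31 CPM in the DMSO libraries (log2 fold change -1.11, SE 0.21, adjusted p = 0.00908). ADCYAP1, the neuropeptide PACAP that raises cyclic AMP, had 6.54 and 7.31 CPM in the dTAG-13 libraries, against 15.3 and 12.5 CPM in the DMSO libraries (log2 fold change -1.0, SE 0.14, adjusted p = 3.06e-04). PPP1R16B, a regulatory subunit of protein phosphatase 1, had 16.4 and 12.6 CPM in the dTAG-13 libraries, against 24.8 and 25.3 CPM in the DMSO libraries (log2 fold change -0.79, SE 0.12, adjusted p = 5.94e-04).

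Among cell-surface and secreted products of T cells, CD40LG, the ligand by which T cells stimulate CD40 on B cells, had 48.5 and 52.4 CPM in the dTAG-13 libraries, against 88.7 and 84.2 CPM in the DMSO libraries (log2 fold change -0.78, SE 0.08, adjusted p = 8.74e-07). It was the only one of 19 tested TNF ligands and receptors to pass. TNFSF10, the death ligand TRAIL, stood at -0.47 (SE 0.20) and TNFRSF4, the costimulatory receptor OX40, at 0.27 (SE 0.12). GZMA, a granule protease of cytotoxic lymphocytes, had 4.14 and 3.73 CPM in the dTAG-13 libraries, against 8.19 and 6.58 CPM in the DMSO libraries (log2 fold change -0.90, SE 0.17, adjusted p = 0.00943), and was the 1 of 10 tested cytotoxic granule genes to pass. SEMA4A, a semaphorin that acts on T cells, had 6.35 and 4.61 CPM in the dTAG-13 libraries, against 9.52 and 9.71 CPM in the DMSO libraries (log2 fold change -0.81, SE 0.16, adjusted p = 0.00943). PI16, a secreted peptidase inhibitor, had 6.08 and 5.68 CPM in the dTAG-13 libraries, against 11.2 and 10.1 CPM in the DMSO libraries (log2 fold change -0.85, SE 0.14, adjusted p = 0.00222). The replicates of SEMA4A were closer with DMSO than with dTAG-13.

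The SLAM family are adhesion receptors through which lymphocytes signal to each other. LY9 had 5.29 and 5.12 CPM in the dTAG-13 libraries, against 9.40 and 7.76 CPM in the DMSO libraries (log2 fold change -0.71, SE 0.16, adjusted p = 0.0324), and CD84 had 64.9 and 61.2 CPM in the dTAG-13 libraries, against 85.7 and 90.1 CPM in the DMSO libraries (log2 fold change -0.48, SE 0.07, adjusted p = 8.58e-04). They were the 2 that fell among 8 tested members, 7 of which had negative values (median -0.11). Over all genes tested 0.393% fell and 48.4% had negative values. SLAMF6 stood at -0.33 (SE 0.10, adjusted p = 0.245), while SH2D1A, the adaptor of these receptors, stood at -0.01 (SE 0.07). CD5, which dampens T cell receptor signals, had 118 and 119 CPM in the dTAG-13 libraries, against 154 and 145 CPM in the DMSO libraries (log2 fold change -0.33, SE 0.07, adjusted p = 0.0161). ITGA4, the alpha chain of the VLA-4 integrin, had 109 and 102 CPM in the dTAG-13 libraries, against 133 and 137 CPM in the DMSO libraries (log2 fold change -0.35, SE 0.07, adjusted p = 0.00991) and was the 1 of 21 tested adhesion genes to pass.

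SLA, an adaptor that promotes turnover of the T cell receptor, had 171 and 179 CPM in the dTAG-13 libraries, against 219 and 217 CPM in the DMSO libraries (log2 fold change -0.32, SE 0.07, adjusted p = 0.0214). It was the 1 of 35 tested genes of T cell receptor signalling to pass. Of these 35 genes 28 (80%) had negative values, against 7255 of 14994 (48.4%) of all genes, and their median was -0.10. The kinases LCK (0.00), FYN (0.00) and ZAP70 (-0.11) did not pass. None of the 17 tested chemokine receptor and egress genes passed (median -0.14). CCR4, a receptor of skin-homing and type 2 helper T cells, stood at -0.94 (SE 0.26, adjusted p = 0.153).

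Of the 7 GIMAP genes, which encode lymphocyte GTPases linked to T-cell survival and lie in 1 cluster, 5 fell, against 0.393% of all genes tested. The family had the lowest median of the 50 lists (-0.38). Those lists were chosen with earlier results of these data known, so the rank is only a description. GIMAP1 had 21.5 and 20.2 CPM in the dTAG-13 libraries, against 31.04 and 30.2 CPM in the DMSO libraries (log2 fold change -0.55, SE 0.10, adjusted p = 0.00259). GIMAP4 had 63.2 and 61.9 CPM in the dTAG-13 libraries, against 85.05 and 78.6 CPM in the DMSO libraries (log2 fold change -0.39, SE 0.08, adjusted p = 0.00943), and GIMAP6 had 53.9 and 56.4 CPM in the dTAG-13 libraries, against 69.9 and 73.9 CPM in the DMSO libraries (log2 fold change -0.38, SE 0.08, adjusted p = 0.0121). The 5 log2 fold changes were -0.55 to -0.35. Of the 5 genes 2 passed without dTAG-13 replicate 1, without DMSO replicate 1 or without DMSO replicate 2, and 4 passed without dTAG-13 replicate 2. GIMAP2 (-0.20, SE 0.08) and GIMAP8 (0.06, SE 0.35) did not pass. The members are similar in sequence, and reads could be split between them by the authors' counting.

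Of genes that earlier studies of T-ALL placed under activation by TAL1, all 13, TAL1 itself among them, had negative values (median -0.22), and 4 fell. Of all genes tested 48.4% had negative values and 0.393% fell. ALDH1A2, which makes retinoic acid from retinaldehyde, had 75.4 and 76.2 CPM in the dTAG-13 libraries, against 139.6 and 128 CPM in the DMSO libraries (log2 fold change -0.82, SE 0.07, adjusted p = 1.61e-07), the smallest adjusted p of the comparison. TSPAN7, a tetraspanin membrane protein, had 179 and 193 CPM in the dTAG-13 libraries, against 272 and 240.0 CPM in the DMSO libraries (log2 fold change -0.46, SE 0.07, adjusted p = 0.00114). SIX6, a homeobox factor, had 44.97 and 48.99 CPM in the dTAG-13 libraries, against 70.3 and 65.3 CPM in the DMSO libraries (log2 fold change -0.53, SE 0.08, adjusted p = 7.41e-04). The transcription factors that share the TAL1 complex did not pass the test. MYB stood at 288 and 266 CPM in the dTAG-13 libraries, against 324 and 336 CPM in the DMSO libraries (log2 fold change -0.25, SE 0.07, adjusted p = 0.140), and RUNX1 at 248 and 238 CPM in the dTAG-13 libraries, against 274 and 291 CPM in the DMSO libraries (-0.22, SE 0.07, adjusted p = 0.274). GATA3 stood at 84.04 and 81.97 CPM in the dTAG-13 libraries, against 89.6 and 82.2 CPM in the DMSO libraries (-0.05, SE 0.07, adjusted p = 0.966), and its groups overlapped.

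**Figure D2:**
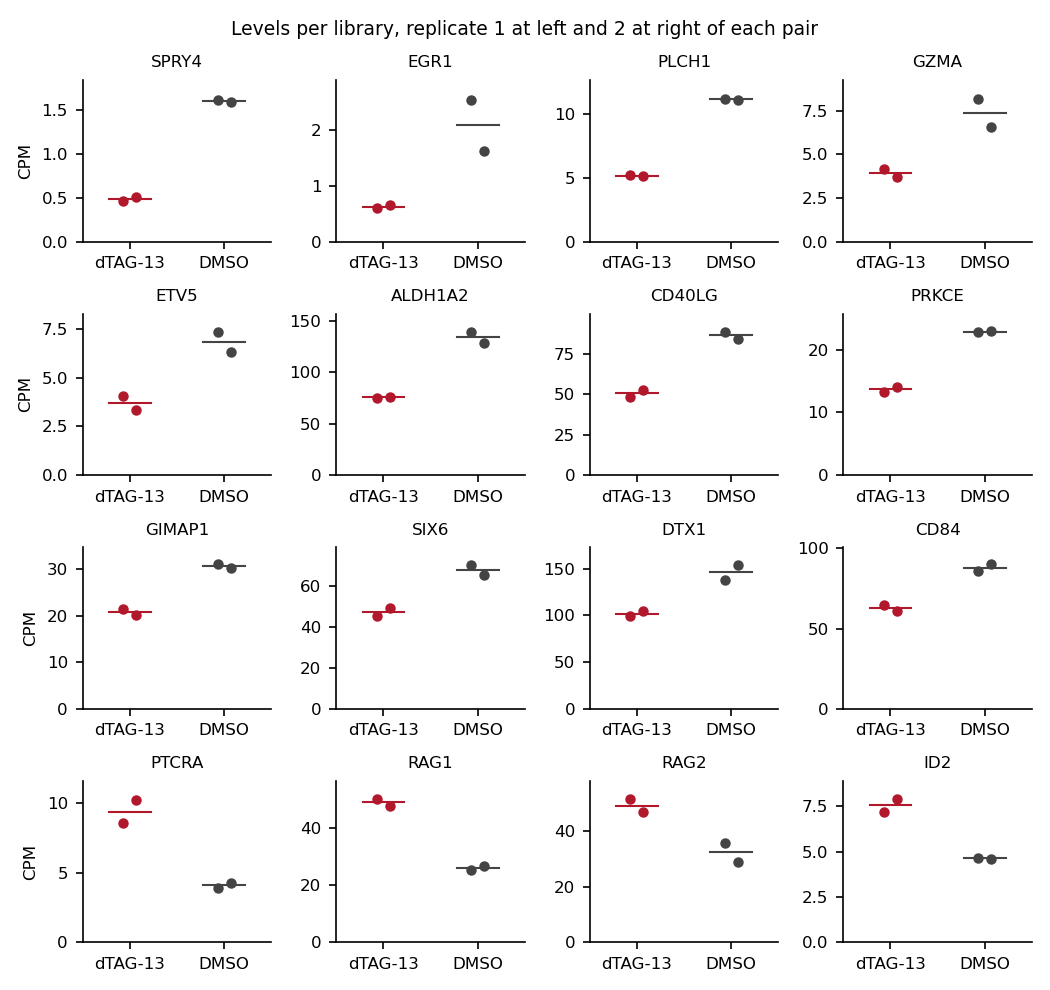
CPM of 16 named genes in each library (y axes, each starting at 0), with dTAG-13 in red at left and DMSO in grey at right, 1 point per library, replicate 1 then 2, and the mean of both as a line. The 2 dTAG-13 points lie below both DMSO points in the first 12 panels and above them in PTCRA, RAG1, RAG2 and ID2.

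The genes of the recombinase and of the pre-T cell receptor chain rose. PTCRA pairs with the beta chain of the T cell receptor before the alpha chain is made, and had 8.52 and 10.2 CPM in the dTAG-13 libraries, against 3.92 and 4.26 CPM in the DMSO libraries, a 2.27-fold higher level with dTAG-13 (log2 fold change 1.19, SE 0.16, adjusted p = 2.98e-04). RAG1 had 50.1 and 47.7 CPM in the dTAG-13 libraries, against 25.3 and 26.5 CPM in the DMSO libraries (log2 fold change 0.91, SE 0.09, adjusted p = 4.24e-07), with close replicates in each group. RAG2 had 51.5 and 46.6 CPM in the dTAG-13 libraries, against 35.7 and 28.9 CPM in the DMSO libraries (log2 fold change 0.61, SE 0.09, adjusted p = 0.00114). DNTT, the polymerase that adds bases at the joints, stood at 0.29 (SE 0.07, adjusted p = 0.0546) and did not pass, nor did the end-joining genes PRKDC (-0.05), LIG4 (-0.20) or XRCC6 (0.02). RAG1 and RAG2 were the 2 that rose among 11 tested genes of V(D)J recombination and end joining (median 0.16), against 0.08% of all genes tested.

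In the list of 20 thymocyte genes associated with E proteins, RAG1, RAG2 and PTCRA rose, CD5 fell and 16 did not pass. The list had 16 positive values and a median of 0.17. Among all 14994 genes tested 7739 had positive values, 12 rose and 59 fell. CD4 (0.35, SE 0.15) and CD8A (0.30, SE 0.20) had positive values, while CD1A (-0.15) and IL7R (-0.03) had negative ones. Transcripts of the alpha chain fell, in contrast to PTCRA. TRAC, its constant segment, had 62.9 and 62.2 CPM in the dTAG-13 libraries, against 82.7 and 78.01 CPM in the DMSO libraries (log2 fold change -0.36, SE 0.07, adjusted p = 0.0169), and the variable segment TRAV8-4 had 23.4 and 22.4 CPM in the dTAG-13 libraries, against 33.98 and 32.97 CPM in the DMSO libraries (log2 fold change -0.55, SE 0.09, adjusted p = 0.00222). Segments of the receptor resemble each other, so their reads may be shared. TRBC2 of the beta chain (0.09) and the CD3 chains (-0.07 for CD3D to 0.04 for CD3G, and 0.12 for CD247) did not pass.

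ID2, which binds E proteins and keeps them off DNA, had 7.18 and 7.92 CPM in the dTAG-13 libraries, against 4.67 and 4.58 CPM in the DMSO libraries (log2 fold change 0.71, SE 0.16, adjusted p = 0.0414). It was the 1 of 11 tested genes of the TAL1 complex and its helix-loop-helix partners to pass. Its relatives ID3 (0.34, SE 0.08, adjusted p = 0.0512) and ID1 (0.28, SE 0.12, adjusted p = 0.592) had positive values short of the threshold. The E proteins TCF3 (-0.02), TCF12 (0.05) and TCF4 (-0.01), and LYL1, a close relative of TAL1 (-0.30, SE 0.16), did not pass.

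The other 8 genes that rose were of varied function. GPR56 (now ADGRG1), an adhesion G protein-coupled receptor of cytotoxic lymphocytes, had 45.1 and 36.6 CPM in the dTAG-13 libraries, against 28.6 and 25.3 CPM in the DMSO libraries (log2 fold change 0.60, SE 0.10, adjusted p = 0.00222). ASS1, which makes argininosuccinate for arginine synthesis, had 17.9 and 18.1 CPM in the dTAG-13 libraries, against 12 and 11.6 CPM in the DMSO libraries (log2 fold change 0.61, SE 0.11, adjusted p = 0.00729). PMEPA1, a membrane protein that dampens TGF-beta signalling, had 139.6 and 141 CPM in the dTAG-13 libraries, against 108 and 112 CPM in the DMSO libraries (log2 fold change 0.35, SE 0.07, adjusted p = 0.00943). RGCC, a regulator of the cell cycle, had 49.02 and 61.01 CPM in the dTAG-13 libraries, against 42.1 and 40.00 CPM in the DMSO libraries (log2 fold change 0.42, SE 0.09, adjusted p = 0.0324). RNF145, a ubiquitin ligase of sterol metabolism, had 90.1 and 88.02 CPM in the dTAG-13 libraries, against 66.3 and 72.9 CPM in the DMSO libraries (log2 fold change 0.35, SE 0.07, adjusted p = 0.0212). SH3TC1 had 148 and 166 CPM in the dTAG-13 libraries, against 126 and 122 CPM in the DMSO libraries (log2 fold change 0.34, SE 0.07, adjusted p = 0.0211).

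ZNF692, a zinc finger protein that cereblon can bind when drugs of the thalidomide class are present, had 71.2 and 76.5 CPM in the dTAG-13 libraries, against 59.5 and 55.02 CPM in the DMSO libraries (log2 fold change 0.37, SE 0.08, adjusted p = 0.0213) and was the 1 of 17 tested genes of the degron and cereblon list to pass. MT-TC, the mitochondrial tRNA for cysteine, had 82.4 and 97.8 CPM in the dTAG-13 libraries, against 67.6 and 65.6 CPM in the DMSO libraries (log2 fold change 0.44, SE 0.08, adjusted p = 0.00705). Mitochondrial genes took 8.29% and 8.74% of counts in the dTAG-13 libraries, against 8.06% and 7.97% in the DMSO libraries. All 15 listed mitochondrial transcripts, none past the test, had positive values (median 0.12). The part of this share in the MT-TC result was not tested.

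Several genes of other roles fell. BCL2, the inhibitor of apoptosis, had 18.4 and 18.3 CPM in the dTAG-13 libraries, against 22.96 and 27.03 CPM in the DMSO libraries (log2 fold change -0.45, SE 0.11, adjusted p = 0.0463), the 1 of 15 tested BCL2 family genes to pass. BIK, a death-promoting member, stood at 0.48 (SE 0.12, adjusted p = 0.0599), and MCL1 at -0.11 (SE 0.07). STAT5A, which relays cytokine signals, had 8.47 and 8.62 CPM in the dTAG-13 libraries, against 12.4 and 13.2 CPM in the DMSO libraries (log2 fold change -0.58, SE 0.13, adjusted p = 0.0324). NLRC5, the activator of MHC class I genes, had 14.04 and 12.7 CPM in the dTAG-13 libraries, against 18.4 and 19.3 CPM in the DMSO libraries (log2 fold change -0.50, SE 0.11, adjusted p = 0.0361), while none of the other 17 tested genes of MHC class I and antigen processing passed. KCNH2, a potassium channel, had 43.5 and 46.5 CPM in the dTAG-13 libraries, against 58.7 and 56.6 CPM in the DMSO libraries (log2 fold change -0.36, SE 0.08, adjusted p = 0.0324). MYO1G, a myosin of blood cells, had 157 and 152 CPM in the dTAG-13 libraries, against 209 and 211 CPM in the DMSO libraries (log2 fold change -0.44, SE 0.07, adjusted p = 7.41e-04). KIAA1462, which encodes the junctional protein JCAD, had 1.47 and 1.21 CPM in the dTAG-13 libraries, against 3.92 and 3.04 CPM in the DMSO libraries (log2 fold change -1.36, SE 0.26, adjusted p = 0.00861).

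DTX1, a ubiquitin ligase induced by NOTCH, had 99.4 and 104 CPM in the dTAG-13 libraries, against 138 and 154 CPM in the DMSO libraries (log2 fold change -0.52, SE 0.07, adjusted p = 3.00e-04). With PTCRA, which rose, it was 1 of 2 genes past the test among 18 reported NOTCH1 targets (median -0.01), against 0.474% of all genes tested. HES1, a repressor induced by NOTCH, stood at -0.42 (SE 0.13, adjusted p = 0.210), NOTCH3 at 0.28 (SE 0.07, adjusted p = 0.107) and HES4 at 0.30 (SE 0.09, adjusted p = 0.286). MYC stood at 347 and 352 CPM in the dTAG-13 libraries, against 349 and 339.8 CPM in the DMSO libraries (0.02, SE 0.07), and its groups overlapped.

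No member passed among 32 mitosis genes (median 0.03), 35 S phase genes (0.02), 28 ribosome biogenesis genes (0.01), 12 genes of the MYC network (0.01), 22 p53 targets (0.03) or 29 interferon-stimulated genes (-0.01). Some lists had many small positive values without a gene past the test. They were positive in 28 of 30 cytosolic ribosomal protein genes (median 0.09), 22 of 24 genes of cholesterol synthesis and uptake (0.08), 24 of 28 nuclear-encoded respiratory chain genes (0.07) and 25 of 28 genes of glycolysis and the low oxygen response (0.04). Over all genes tested 7739 of 14994 were positive. Of the 50 lists, 23 held a gene past the test. The lists hold 957 of the 14994 genes tested and 34 of the 71 past the test. The lists and the genes in them were chosen with earlier results of these data known, so their counts describe the data and do not test the lists.

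**Figure D3:**
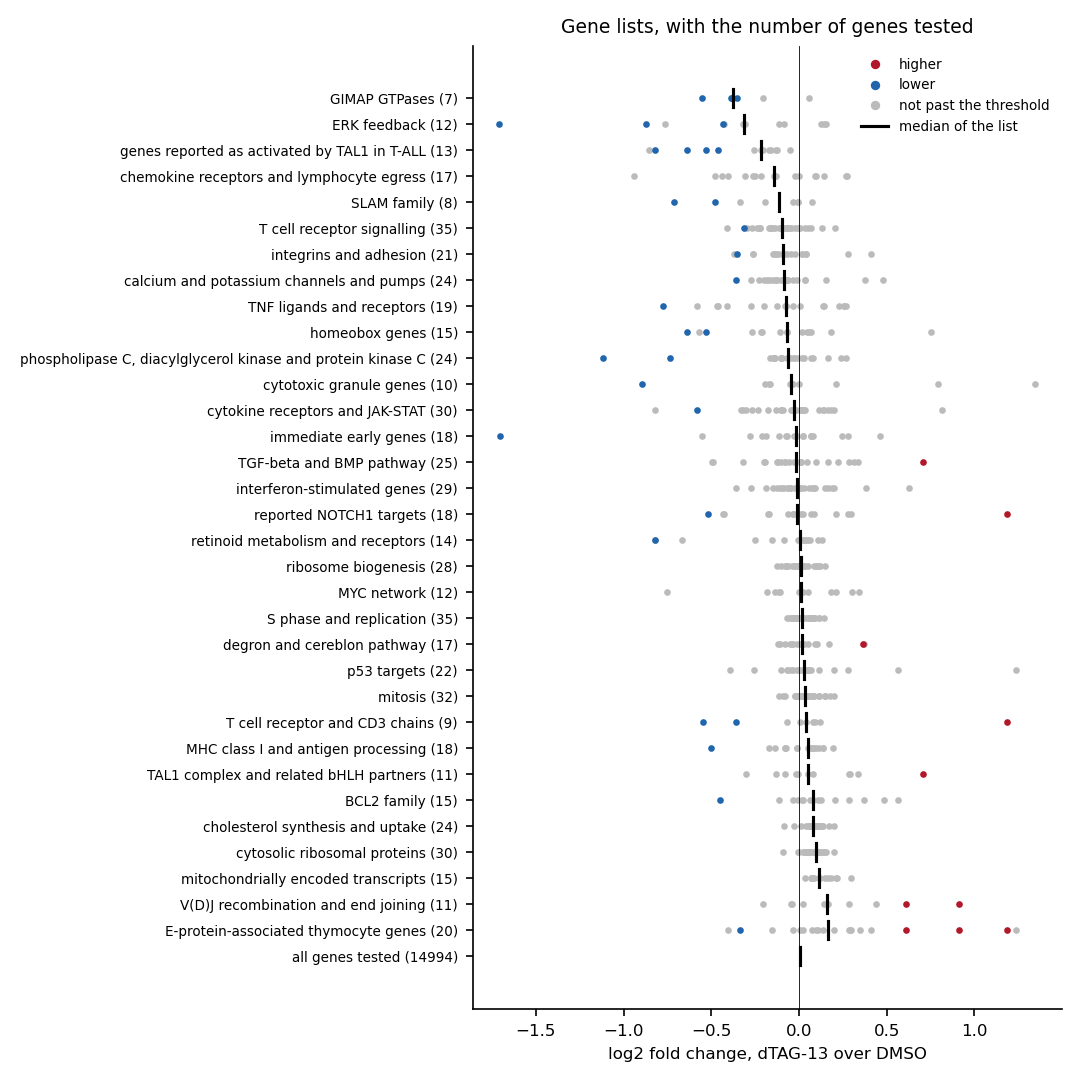
Log2 fold change of dTAG-13 over DMSO (x axis) for every tested gene of 33 of the lists (rows, with the number tested), ordered by median (black bar). Blue points fell, red points rose and grey points did not pass. GIMAP genes and ERK feedback genes have the lowest medians (-0.38 and -0.31), and the thymocyte genes associated with E proteins the highest (0.17).

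dTAG-13 was also given to cells that received GSI, and the combination and GSI libraries share no sample with the first comparison. All 71 genes had the same sign there. The 59 lower genes had a median log2 fold change of -0.50 with dTAG-13 over DMSO and -0.41 with the combination over GSI, and the 12 higher genes 0.52 and 0.59. In the combination over GSI, 56 of the 71 (78.9%) had an unadjusted p below 0.05 in the same direction, against 302 of 14694 genes tested in both (2.06%). Same signs were seen in 699 of 945 genes (74%) with an unadjusted p below 0.05 that were not called, and in 7655 of 13678 (56%) of the remaining genes. The combination libraries and the GSI libraries varied more between replicates (13.1 and 13.9 as the chi-square of their counts per degree of freedom) than the dTAG-13 and DMSO libraries (6.09 and 4.56). There edgeR called 2 genes lower (0.0132% of 15114 tested) and 1 higher (0.00662%), together 0.0198%, by a fit of those 4 libraries, and all 3 were among the 71. This count moved with the setting. With no low-count filter 21 were lower and 5 higher. The counts were 6 and 3 in 1 model of all 8 libraries, 11 to 13 and 3 to 11 with 1 library left out, and 114 and 63 with a replicate block, which the labels do not give as a pairing.

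Those 3 were PLCH1, CD40LG and RAG1. PLCH1 had 11.5 and 11.9 CPM in the combination libraries, against 27.3 and 25.8 CPM in the GSI libraries (log2 fold change -1.17, SE 0.13, adjusted p = 0.016). CD40LG had 32.5 and 35.4 CPM in the combination libraries, against 68.9 and 67.8 CPM in the GSI libraries (log2 fold change -1.0, SE 0.12, adjusted p = 0.016). RAG1 had 65.6 and 51.4 CPM in the combination libraries, against 23.96 and 18.8 CPM in the GSI libraries (log2 fold change 1.46, SE 0.16, adjusted p = 0.016). In each of these 3 genes the groups did not overlap. With dTAG-13 over DMSO this held for 35.3% of all tested genes, and the share was not counted for the combination over GSI. RAG2 had 59.6 and 56.3 CPM in the combination libraries, against 36.6 and 33.97 CPM in the GSI libraries (0.72, SE 0.12), and PTCRA had 2.84 and 1.82 CPM in the combination libraries, against 1.27 and 1.45 CPM in the GSI libraries (0.79, SE 0.31), neither past the test in the fit of those 4 libraries. EGR1 had 0.744 and 1.01 CPM in the combination libraries, against 2.72 and 1.64 CPM in the GSI libraries (-1.31, SE 0.36), and SPRY4 had 1.21 and 1.48 CPM in the combination libraries, against 2.72 and 2.46 CPM in the GSI libraries (-0.93, SE 0.28), with groups that did not overlap and adjusted p-values of 1. The medians of the lists with the combination over GSI were -0.38 for GIMAP genes, -0.34 for ERK feedback, -0.29 for genes reported as activated by TAL1 and 0.23 for thymocyte genes associated with E proteins. They were -0.22 for the SLAM family (-0.11 with dTAG-13 over DMSO), -0.23 for homeobox genes (-0.07), -0.03 for chemokine receptors and egress (-0.14) and 0.14 for reported NOTCH1 targets (-0.01). The median of V(D)J recombination and end joining was -0.01 there and 0.16 with dTAG-13 over DMSO. The 15 mitochondrial transcripts had negative values there (median -0.09).

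**Figure D4:**
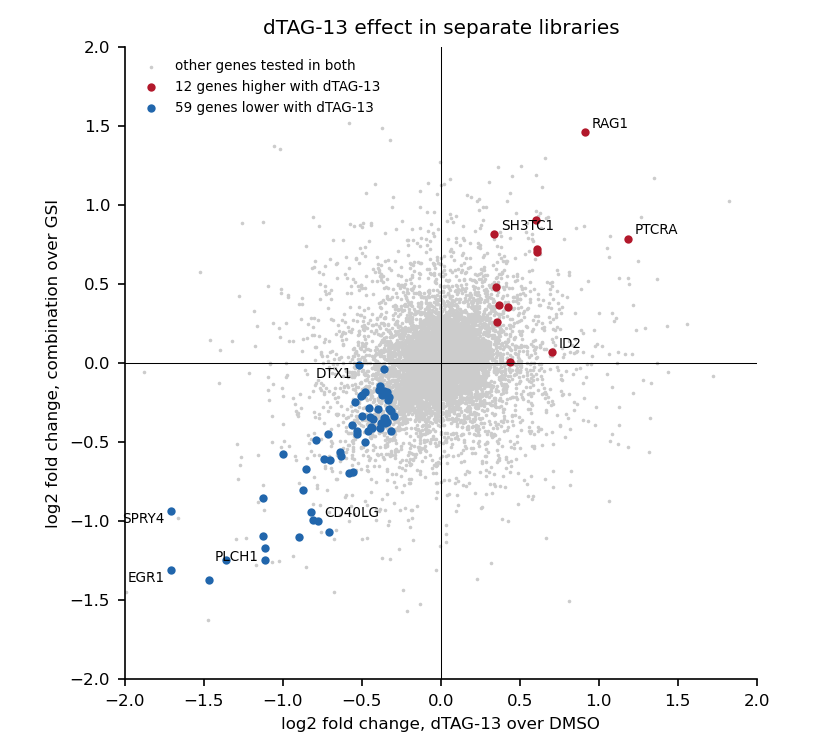
Log2 fold change of dTAG-13 over DMSO (x axis) and of the combination over GSI (y axis) for genes tested in both, 4 of which lie outside the axes. Blue points are the 59 lower and red points the 12 higher genes of the first comparison. All 71 lie in the quadrants of equal sign, with DTX1, ID2, MT-TC and KCNH2 close to 0 on the y axis.

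Whether an effect differed between the 2 backgrounds was tested as an interaction over the 8 libraries. No gene passed after adjustment, by edgeR (260 genes below an unadjusted p of 0.05, smallest adjusted p 1) or by DESeq2 (76 genes). Among the 71 genes 6 had an unadjusted p below 0.05. DTX1 had 19.7 and 16.96 CPM in the combination libraries, against 18.3 and 18.8 CPM in the GSI libraries, with groups that overlapped (log2 fold change -0.01, against -0.52 without GSI, difference 0.50, SE 0.14, unadjusted p = 0.00393). SH3TC1 had 46.1 and 43.4 CPM in the combination libraries, against 25.3 and 25.9 CPM in the GSI libraries (log2 fold change 0.81, against 0.34 without GSI, difference 0.47, SE 0.12, unadjusted p = 0.00272). ID2 had 8.14 and 7.62 CPM in the combination libraries, against 7.59 and 7.47 CPM in the GSI libraries (log2 fold change 0.07, against 0.71 without GSI, difference -0.64, SE 0.20, unadjusted p = 0.00728). RAG1 had a larger log2 fold change with GSI (1.46) than without it (0.91), a difference of 0.54, SE 0.19, unadjusted p = 0.0144. The remaining 2 were MT-TC (-0.44, SE 0.19, unadjusted p = 0.0438) and KCNH2 (0.32, SE 0.14, unadjusted p = 0.0492).

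The strength of single calls varied with the library left out. Of the 71 genes 21 passed whichever of the 4 libraries was omitted. Those under the naming rule were PLCH1, ADCYAP1, PI16, ALDH1A2, PPP1R16B, CD40LG, PRKCE, GIMAP1, TRAV8-4, SIX6, DTX1, CD84, TSPAN7, MYO1G, RAG1 and PTCRA. SPRY4 and ID2 passed in none of the 4, with adjusted p-values of up to 0.303, and neither did GIMAP7 and PPP1R18, which were chosen after their values were seen. GIMAP5 passed in 1 of the 4. Without DMSO replicate 2, 30 of the 71 remained, and RAG2, ASS1 and GPR56 were lost only there. Without DMSO replicate 1, 45 remained, and GZMA, KIAA1462, SPRED2 and GIMAP4 were lost only there. Without dTAG-13 replicate 1 or dTAG-13 replicate 2, 50 and 47 remained. The calls of PREX2, BCL2 and STAT5A ended without either dTAG-13 library or DMSO replicate 2, and those of LY9 without either dTAG-13 library or DMSO replicate 1. The calls of EGR1 ended without dTAG-13 replicate 1 or DMSO replicate 1, of ETV5 without dTAG-13 replicate 2 or DMSO replicate 1, and of GIMAP6 without dTAG-13 replicate 1 or DMSO replicate 2. ENPP1, SEMA4A, ITGA4, NLRC5, MT-TC, RGCC and ZNF692 were lost without dTAG-13 replicate 2 or DMSO replicate 2, and CD5, TRAC and PMEPA1 without either DMSO library. SLA, KCNH2 and RNF145 were lost without dTAG-13 replicate 1 or either DMSO library, and SH3TC1 without dTAG-13 replicate 2 or either DMSO library. No named gene past the test changed sign with dTAG-13 over DMSO in any of these fits.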

How the data were processed

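Per the labels' protocols, total RNA was extracted with the miRNeasy kit, and strand-specific libraries were sequenced as paired ends. The submitters' processing notes name the hg19 build, STAR 2.5.2a, DESeq2 1.12.4 and featureCounts. Neither the annotation nor whether counting used strand is given in the sources used here, so overlapping and antisense genes are uncertain. The authors deposited raw counts per gene and library (63677 genes). They also deposited a DESeq2 table of dTAG-13 against DMSO, whose columns per the file headers are a mean normalised signal, a log2 fold change with its error, a score (the fold change over its error) and p-values, raw and adjusted. Promoters come from RefSeq's GRCh38.p14 table, a later build than that of the counts.

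Counts of the 2 dTAG-13 and 2 DMSO libraries were filtered with filterByExpr, scaled by TMM and fitted with the robust quasi-likelihood test of edgeR 4.0.16 (R 4.3.3, limma 3.58.1), with 2 residual degrees of freedom, a 2-sided test and Benjamini-Hochberg adjustment over all tested genes at 0.05. The combination and GSI libraries were fitted in the same way, and the interaction over all 8 libraries. Alternatives were DESeq2 1.42.0, its size factors, no filter on low counts, 1 model of 8 libraries, a replicate block and leaving out each library. Only the fit of dTAG-13 against DMSO was run on simulated counts, drawn with the spread estimated from these same 4 libraries.

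The members, the 50 gene lists, the rule for named genes and the choice of the 4-library fit were made with earlier results of these data known, including the counts of calls of both fits. The genes named are the 15 lowest and up to 15 highest called genes by fold change, which took in all 12 that rose. The 5 by difference in CPM in each direction were added. All of these had a mean of at least 1 CPM, groups that do not overlap and no clone name. To these come up to 3 called members of each list per direction and a set of fixed genes (TAL1, PLCH1, CD40LG, ALDH1A2, FKBP1A, CRBN, RAG1, RAG2, PTCRA, MYC, GATA3, RUNX1 and MYB). Some genes that the rule takes are not reported here. Other members of a list are named as examples, chosen after their values were seen. Replicate counts differed by more than sampling noise in each group (chi-square per degree of freedom 4.56 to 13.9).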

Additional observations from a re-analysis of the deposited data

How the results depend on the processing

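DESeq2's size factors gave the same counts as TMM, 59 lower and 12 higher with dTAG-13, and the median log2 fold change of all genes stayed between -0.007 and 0.006 in the settings run. Without the filter on low counts edgeR called 81 lower and 38 higher, and 94.1% (111 of 118) of those tested in the combination over GSI had the same sign there. DESeq2 called 26 lower and 7 higher, and 1 model of all 8 libraries 3 lower (PLCH1, CD40LG and ALDH1A2) and 0 higher. Leaving out 1 library gave 30 to 55 lower and 2 to 41 higher, with equal signs in 91.7% to 100% of the calls. The combination over GSI had 2 lower and 1 higher, 21 and 5 without the filter, 6 and 3 in 1 model of all 8 libraries, and 11 to 13 lower and 3 to 11 higher with 1 library left out. Left-out fits have 1 lone library in a group, which is assumed to vary like the others. The interaction had 0 calls in each setting except 1 lower gene without DMSO replicate 1.

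With a replicate block, 67 genes were lower and 27 higher, 67 of the 71 among them (SLA was the named gene lost), and the combination over GSI had 114 lower and 63 higher. Of the 71 genes 50 were called there, all with equal sign. The differences between replicates 1 and 2 in dTAG-13 and in DMSO correlated at -0.0665 over 14994 genes (0.339 for the combination and GSI). Such a correlation cannot decide whether libraries of the same replicate number were handled together, and the labels do not say. Depth limits genes near 1 CPM, such as SPRY4, EGR1 and PREX2. No named gene past the test changed sign with dTAG-13 over DMSO in a setting run. With 1 of the combination and GSI libraries left out, or another fit of these, 95.8% to 100% of the 71 genes had equal signs, and MT-TC was the gene of opposite sign in 1 model of all 8 libraries.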

Other observations

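The genes past the test that lie outside the naming rule were all lower, and those below were chosen after their values were seen. PALD1, a phosphatase-like protein, had 26.2 and 25.2 CPM in the dTAG-13 libraries, against 37.3 and 42.2 CPM in the DMSO libraries (log2 fold change -0.63, SE 0.09, adjusted p = 4.33e-04), and it stayed past the test whichever library was left out. So did KRT1, a keratin of the epidermis, with 11.5 and 11.6 CPM in the dTAG-13 libraries, against 17.9 and 19.6 CPM in the DMSO libraries (log2 fold change -0.71, SE 0.12, adjusted p = 0.00154), AFF3, a nuclear protein of lymphoid cells, with 18.7 and 16.8 CPM in the dTAG-13 libraries, against 26.2 and 26.2 CPM in the DMSO libraries (log2 fold change -0.56, SE 0.10, adjusted p = 0.00498), and MICAL1, an actin-oxidising enzyme, with 61.2 and 58.96 CPM in the dTAG-13 libraries, against 83.1 and 80.6 CPM in the DMSO libraries (log2 fold change -0.45, SE 0.07, adjusted p = 0.00199). H6PD, the glucose-6-phosphate dehydrogenase of the endoplasmic reticulum, had 41.6 and 38.2 CPM in the dTAG-13 libraries, against 55.6 and 57.3 CPM in the DMSO libraries (log2 fold change -0.50, SE 0.08, adjusted p = 0.00154). CYTH1, an exchange factor for ARF GTPases, had 136 and 132 CPM in the dTAG-13 libraries, against 174 and 179 CPM in the DMSO libraries (log2 fold change -0.40, SE 0.07, adjusted p = 0.00222), CD82, a tetraspanin, had 82.2 and 84.2 CPM in the dTAG-13 libraries, against 104 and 107 CPM in the DMSO libraries (log2 fold change -0.34, SE 0.07, adjusted p = 0.0161), and HCST, the adaptor DAP10, had 18.6 and 19.5 CPM in the dTAG-13 libraries, against 26.8 and 24.99 CPM in the DMSO libraries (log2 fold change -0.44, SE 0.10, adjusted p = 0.0366). The keratin KRT1 had 13.4 and 14.6 CPM in the combination libraries, against 25.4 and 33.7 CPM in the GSI libraries (log2 fold change -1.07, SE 0.16), and did not pass the test there. Another 3 genes have clone or noncoding names, RP5-1028K7.2, LINC00694 and RP11-678G14.3.

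Some list members lay just short of the threshold. TOX2, an HMG-box factor, stood at -0.83 (SE 0.21, adjusted p = 0.0738) and -0.51 in the combination over GSI. CDKN1A, the cell cycle inhibitor p21, stood at 1.24 (SE 0.32, adjusted p = 0.0880) and 0.21 there. LCP2, the adaptor SLP-76, stood at -0.27 (SE 0.07, adjusted p = 0.0862) and -0.42 there. BIK was at 0.48 and 0.53, and DNTT at 0.29 and 0.18.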
